A study of Mus musculus with 10 samples.

Results

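The cytochrome P450 genes described here were read by the probe sets of an Affymetrix chip pair whose annotation gives a single gene symbol that starts with Cyp and a digit. They were 39 probe sets, for 30 of 6137 named genes, among 13057 probe sets: 25 on chip A and 14 on chip B. Por was part of the rule, but 0 probe sets carried its name. A further 3 probe sets with several gene symbols, at least 1 of them a P450, were left out. Cytochrome P450 enzymes are heme proteins that insert an oxygen atom into drugs, steroids, fatty acids, sterols and vitamins. Most sit in the membrane of the endoplasmic reticulum and take electrons from NADPH through the reductase encoded by Por, while a smaller mitochondrial set takes them through ferredoxin. Families are numbered by sequence, the liver is known as their main site, and many members lie in tandem clusters of close relatives, which short array probes may not tell apart.

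The arrays measured messenger RNA of adult female C57BL/6 mice, with no treatment named, in liver, pancreas, hypothalamus, muscle and white fat, and the question is which tissues hold which P450 messages. Each tissue had 1 array on each chip, so there was no replicate, no test was made and no value has an error between animals. The labels do not say whether animals were pooled. For the fat arrays the source names white adipose tissue but the title reads preconfluent, a word for cultured cells, so they are called the adipose-labelled sample. Levels are intensities after scaling, in whose unit 0 means no signal left after subtraction. A noise bound was set for each array at the size of its 1st percentile, and it differed widely: on chip A it was 295 for liver, 390.1 for the adipose-labelled sample, 258 for hypothalamus, 1065 for muscle and 1166 for pancreas, and on chip B 792, 918, 649.5, 1639.5 and 2608 in that order. A message below these levels would not be seen, which bears most on pancreas and muscle. A probe set was called for a tissue where its intensity lay above the noise bound and was at least 4 times that of each of the other 4 tissues, after values under a floor, 175 for chip A and 123 for chip B, had been set to it. Folds below divide the highest tissue by the highest value or noise bound of the others, and are given as "at least" where a bound sets them. Intensities of different probe sets are not compared, since each binds with its own strength. In tissue RNA, fewer cells of a type and less message per cell cannot be told apart.

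The P450 messages that could be seen were mostly those of liver. Of the 39 probe sets, 19 were called for liver, which is 48.7%, beside 2.04% of all 13057 probe sets, and they stood for 16 of the 30 genes. With the noise bounds as floors 10 were called, and the 9 that were not were those of Cyp2a12, Cyp2d9, Cyp2j5, Cyp3a13, Cyp4a14 and Cyp17a1, both of Cyp3a16 and the second of Cyp1a2. None was called for pancreas, muscle, hypothalamus or the adipose-labelled sample, where 1.66%, 1.27%, 1.85% and 0.835% of all probe sets were called. On the log2 scale, against the mean of the 4 remaining tissues, the median member was at 2.68 in liver, beside -0.098 over all probe sets, and at -0.55 in pancreas, -0.38 in muscle, -1.19 in hypothalamus and -1.15 in the adipose-labelled sample. Over the 3 other scalings tried, the liver median was 2.69 to 3.02, and the median of all probe sets moved by less than 0.1. The other 4 medians stayed below 0. Liver is part of the mean they were set against, so high liver values alone pull them down. They are no sign of low levels in those tissues. The highest value of a member was in liver for 27 of the 39, in pancreas for 5, in the adipose-labelled sample for 4, in muscle for 3 and in hypothalamus for 0, beside 14.3%, 27.6%, 13.7%, 24.5% and 19.9% of all probe sets. Of the 39, 29 were above noise in at least 1 tissue, beside 42.8% of all probe sets, and 10 in none. Among these 29 the highest value was in liver for 24, in the adipose-labelled sample for 2, in muscle for 2, in pancreas for 1 and in hypothalamus for 0. By tissue 28 were above noise in liver, 4 in the adipose-labelled sample, 2 in hypothalamus, 3 in muscle and 1 in pancreas, beside 25.7%, 24.8%, 31%, 13.9% and 11.9% of all. The 4 P450 genes taken as markers, Cyp2e1, Cyp3a11, Cyp2d26 and Cyp2c29, were all above noise in liver, and 3 of them were called there.

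The call rule sets how low its probe sets are outside liver, so the following values are a description. For the 19 probe sets called for liver, the liver value ran from 924 to 27946, with a median of 8981. The medians of the same probe sets were -28.1 in the adipose-labelled sample, -18.9 in hypothalamus, 43.1 in muscle and -19.0 in pancreas, and 11, 10, 8 and 11 of the 19 values were below 0. Of these probe sets, 1 was above noise outside liver, that of Cyp2f2 in the adipose-labelled sample. A second probe set of the called gene Cyp2d10, itself not called, was above noise in pancreas, hypothalamus and the adipose-labelled sample as well. Of 17 measured genes of the hepatocyte marker list, 16 were above noise in liver and 0 in hypothalamus and the adipose-labelled sample. In pancreas 3 were above it (Ahsg, Serpina1a and Ttr) and in muscle 3 (Apoa2, G6pc and Serpina1a). Of all probe sets, 25.7% were above noise in liver, 31% in hypothalamus and 24.8% in the adipose-labelled sample. In pancreas the share was 11.9% and in muscle 13.9%. With so few genes, the counts in pancreas and muscle are not set apart from those shares. The summed level of the list, with negative values as 0, was 303322 in liver, 15474 in pancreas, 14258 in muscle, 1614 in hypothalamus and 2592 in the adipose-labelled sample. Its gene Otc, a urea cycle enzyme, read 8998 in liver, -78.4 in the adipose-labelled sample, -92.5 in hypothalamus, -319 in muscle and -296 in pancreas. The part of liver RNA in the pancreas and muscle values was not tested.

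**Figure D1:**
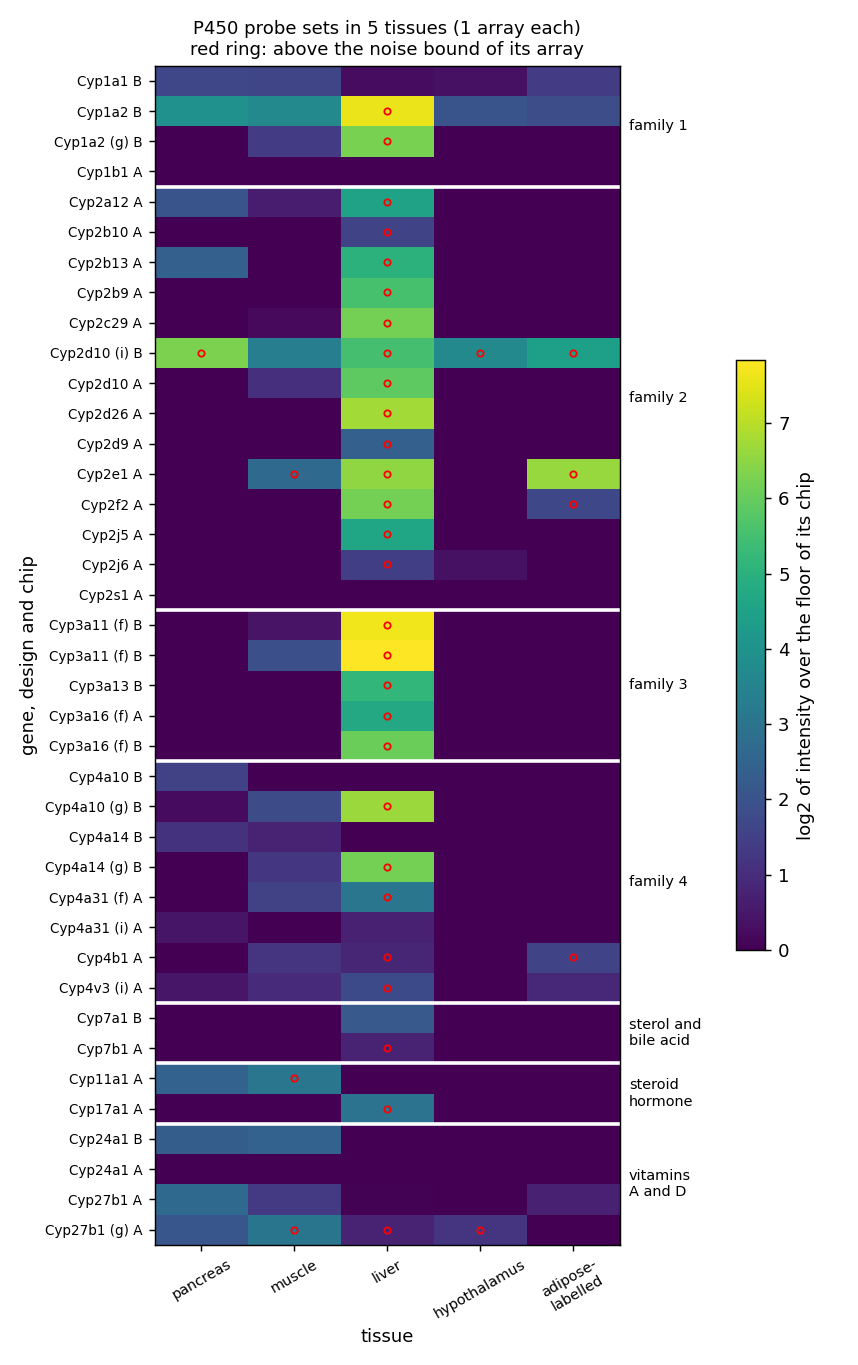
Each row is 1 P450 probe set, with the ending of its name in brackets and its chip letter, each column 1 tissue, and the colour is the log2 of its intensity over the floor of its chip, with lower values at 0. Red rings mark values above the noise bound of the array. The liver column is lit for many rows of families 1 to 4. Cyp2e1 is lit in the adipose-labelled column as well, and the (i) row of Cyp2d10 is lit in all columns and brightest in pancreas.

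**Figure D2:**
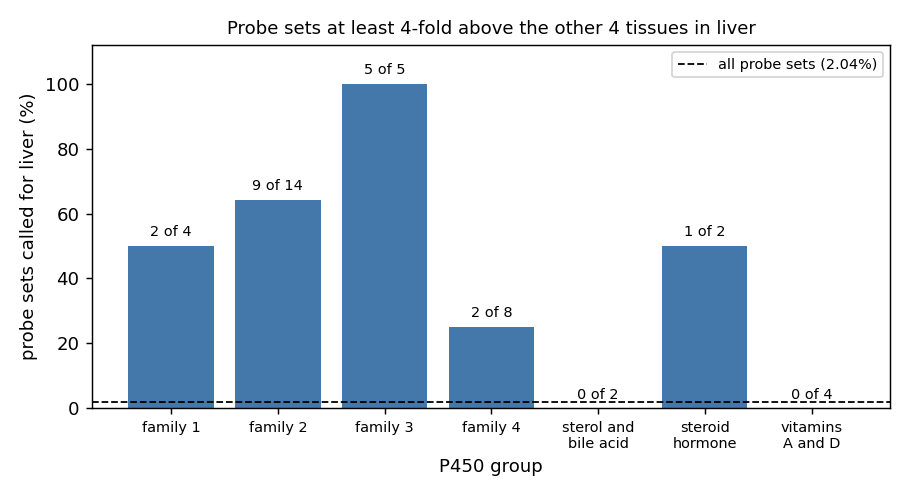
Bars give the percentage of P450 probe sets called for liver in each group, with the counts above them, and the dashed line the 2.04% of all probe sets. All 5 probe sets of family 3 were called, 9 of 14 of family 2, and none of the sterol and vitamin groups.

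Family 1 holds enzymes that oxidise flat aromatic compounds and are known to be induced through the aryl hydrocarbon receptor. Cyp1a2, its constitutive liver member, read 23841 in liver, 438 in the adipose-labelled sample, 499 in hypothalamus, 1572 in muscle and 1903 in pancreas by its first probe set. The second, with the ending _g_at, read 9422 in liver, 73.3 in the adipose-labelled sample, -207 in hypothalamus, 317 in muscle and -1503 in pancreas. Both were called, with liver at least 9.14-fold higher by the first and 3.61-fold by the second; liver was the single high value of each. The inducible Cyp1a1 was above noise in no tissue, reading 147 in liver, 316 in the adipose-labelled sample, 156 in hypothalamus, 382 in muscle and 391 in pancreas. Cyp1b1, which is known mainly outside liver, was likewise above noise nowhere and read -6.98, 142, -31.8, -199 and -49.0 in the same order. Of the Cyp1a pair, neighbours in the genome, 1 was called and 1 lay below the bounds.

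Family 2 is the largest family, with 14 probe sets for 13 genes, of which 9 genes were called for liver. Its Cyp2d genes encode oxidases of basic drugs and steroids. Cyp2d26 read 18663 in liver, 128 in the adipose-labelled sample, 94.5 in hypothalamus, -313 in muscle and -358 in pancreas, at least 16.0-fold above the others. For Cyp2d10 the probe set of chip A read 10451 in liver, 159 in the adipose-labelled sample, 69.6 in hypothalamus, 364 in muscle and -86.1 in pancreas, at least 8.96-fold higher in liver. Cyp2d9, known in mouse as a gene that males express more, read 924 in liver, -32.2 in the adipose-labelled sample, -18.9 in hypothalamus, 43.1 in muscle and 93.1 in pancreas. It was called, but its liver value lay under the pancreas noise bound, so it has no fold. All 3 are neighbours in 1 cluster, and each was called for liver. The upstream sequences of these genes are shown because the members share their tissue and, in part, their letters. They are the 150 bases before the RefSeq transcript start in the build GRCm38.p6, 5′ to 3′ on the strand of the gene, at chr15:82407195-82407344 (minus strand) for Cyp2d10, chr15:82452227-82452376 (plus strand) for Cyp2d9 and chr15:82794246-82794395 (minus strand) for Cyp2d26. Capitals mark matches to CAAAGNNCA, letters of sites known to bind the liver factor HNF4, and to TATAAA.
Cyp2d10: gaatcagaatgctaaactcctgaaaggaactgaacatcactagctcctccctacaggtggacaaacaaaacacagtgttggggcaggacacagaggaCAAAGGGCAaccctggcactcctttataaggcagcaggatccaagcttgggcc
Cyp2d9: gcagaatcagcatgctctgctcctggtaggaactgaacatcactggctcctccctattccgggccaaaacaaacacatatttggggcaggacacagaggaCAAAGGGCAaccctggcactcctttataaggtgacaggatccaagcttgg
Cyp2d26: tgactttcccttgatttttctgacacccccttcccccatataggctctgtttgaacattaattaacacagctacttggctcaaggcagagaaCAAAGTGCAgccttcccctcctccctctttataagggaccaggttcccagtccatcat
Over 250 bases before the start, Cyp2d10 and Cyp2d9 were identical in 82.3% of aligned positions, and Cyp2d26 matched them in 50.0% and 50.2%. Each of the 3 held CAAAGNNCA, beginning 53, 50 and 58 bases before the start.

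The Cyp2b genes encode oxidases of drugs and testosterone, and Cyp2b9 and Cyp2b13 are known to be expressed more in female than in male liver. In these female mice Cyp2b9 read 8266 in liver, -215 in the adipose-labelled sample, -114 in hypothalamus, -423 in muscle and -9.01 in pancreas, at least 7.09-fold higher in liver. Cyp2b13 read 5691 in liver, -35.2 in the adipose-labelled sample, 33.8 in hypothalamus, -349.8 in muscle and 921 in pancreas, at least 4.88-fold higher in liver. Cyp2b10, known for its induction by phenobarbital through the receptor CAR, was not called: it read 537 in liver, 35.2 in the adipose-labelled sample, 16.9 in hypothalamus, 87.2 in muscle and 129 in pancreas. Its liver value was above the noise of the liver array, but under the bounds of muscle and pancreas. The sequences just upstream are given for this trio, of which 2 passed the call rule and Cyp2b10, highest in liver too, fell short of it. The positions in GRCm38.p6 are chr7:26173259-26173408 (plus strand) for Cyp2b9, chr7:26061345-26061494 (plus strand) for Cyp2b13 and chr7:25897508-25897657 (plus strand) for Cyp2b10.
Cyp2b9: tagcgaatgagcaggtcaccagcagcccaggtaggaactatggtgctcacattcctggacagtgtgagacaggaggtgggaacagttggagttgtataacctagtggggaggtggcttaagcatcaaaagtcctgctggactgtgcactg
Cyp2b13: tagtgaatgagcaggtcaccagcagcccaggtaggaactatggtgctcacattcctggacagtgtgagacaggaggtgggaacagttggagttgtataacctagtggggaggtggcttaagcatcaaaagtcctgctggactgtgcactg
Cyp2b10: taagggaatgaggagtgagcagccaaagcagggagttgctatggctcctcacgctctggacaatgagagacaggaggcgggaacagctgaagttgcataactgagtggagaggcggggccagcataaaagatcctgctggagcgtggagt
Cyp2b9 and Cyp2b13 were identical at 248 of 250 positions, or 99.2%, while Cyp2b10 was identical to each in 70.0% of aligned positions. None of the trio held CAAAGNNCA or TATAAA there. Whether the probe sets of Cyp2b9 and Cyp2b13 bind each other's message was not tested.

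The remaining called genes of family 2 were each high in liver and low elsewhere. Cyp2c29, which oxidises arachidonic acid and drugs, read 12715 in liver, 0 in the adipose-labelled sample, 9.95 in hypothalamus, 201 in muscle and -273 in pancreas, at least 10.9-fold higher in liver. Cyp2a12, a steroid hydroxylase, read 3992 in liver, 44.2 in the adipose-labelled sample, 144 in hypothalamus, 263 in muscle and 718 in pancreas, at least 3.42-fold higher. Cyp2j5, an epoxygenase of arachidonic acid known in kidney and liver, read 4354 in liver, -111 in the adipose-labelled sample, -68.6 in hypothalamus, -369 in muscle and -165 in pancreas, at least 3.73-fold higher. Cyp2f2 is best known from the airway, where it activates naphthalene. It read 12717 in liver, 563 in the adipose-labelled sample, 80.6 in hypothalamus, -74.2 in muscle and 51.0 in pancreas, at least 10.9-fold higher in liver, and its value in the adipose-labelled sample was above the noise of that array. The uncalled Cyp2j6, a relative and neighbour of Cyp2j5, read 483 in liver, 121 in the adipose-labelled sample, 222 in hypothalamus, 126 in muscle and 139 in pancreas, of which the liver value was above noise. Cyp2s1, known from epithelia, was above noise in no tissue, reading -363, 17.1, -140.2, -353 and -298 in the same order.

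Cyp2e1 was high in liver and in the adipose-labelled sample. It encodes the enzyme that oxidises ethanol, acetone and other small molecules, and its probe set read 16351 in liver, 17182 in the adipose-labelled sample, -123 in hypothalamus, 1110.4 in muscle and 20.0 in pancreas. Liver and the adipose-labelled sample were both high, at a ratio of 1.05, and with 1 array each they cannot be put in order. The lower of the pair was 14.7-fold above muscle, the next tissue, and 14.0-fold with the noise bounds as floors. Counted as shared by liver and the adipose-labelled sample, with the lower of them at least 4-fold above the other 3 tissues, it was 1 of the 39 probe sets, beside 0.46% of all. In the adipose-labelled sample 0 of the 17 measured hepatocyte genes were above noise, beside 24.8% of all probe sets. Apoh, a plasma glycoprotein, read -111 there against 23012 in liver. Of 10 measured white adipocyte genes 3 were above noise in liver, beside 25.7% of all probe sets. They were the lipid enzymes Acly, Lipe and Lpl, of which Lpl is named after its values were seen. Adipoq, which encodes adiponectin, read 119.7 in liver and 16860 in the adipose-labelled sample. The summed adipocyte level was 133281 in the adipose-labelled sample, 24592 in muscle, 6782 in pancreas, 4897 in liver and 4065 in hypothalamus. Of the muscle sum, 19582 was 1 probe set of Lpl, a lipase that reads higher in muscle than in the adipose-labelled sample here. In muscle Cyp2e1 read 1110.4, just above the bound of 1065. Beside 13.9% of all probe sets, 2 of the 10 adipocyte genes were above noise in muscle, Acly and Lpl. The others were under the bound there, from 988 for Adipoq and 896 for Fabp4 to -90.2 for Pparg, -92.2 for Lep, -218 for Cidec and -329.7 for Adig, and the part of fat cells in the Cyp2e1 value was not tested. The sequence before its start is given with that of Cyp2a12, at chr7:140763669-140763818 (plus strand) and chr7:27028940-27029089 (plus strand) in GRCm38.p6, as 2 members with TATAAA near the start.
Cyp2e1: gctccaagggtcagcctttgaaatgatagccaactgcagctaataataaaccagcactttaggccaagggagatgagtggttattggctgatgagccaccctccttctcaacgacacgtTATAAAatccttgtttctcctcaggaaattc
Cyp2a12: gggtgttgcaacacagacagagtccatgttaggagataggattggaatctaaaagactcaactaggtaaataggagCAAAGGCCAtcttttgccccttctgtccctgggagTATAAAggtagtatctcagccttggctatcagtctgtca
TATAAA begins 31 bases before the start of Cyp2e1 and 39 before that of Cyp2a12, and of the pair only Cyp2a12 held CAAAGNNCA.

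**Figure D3:**
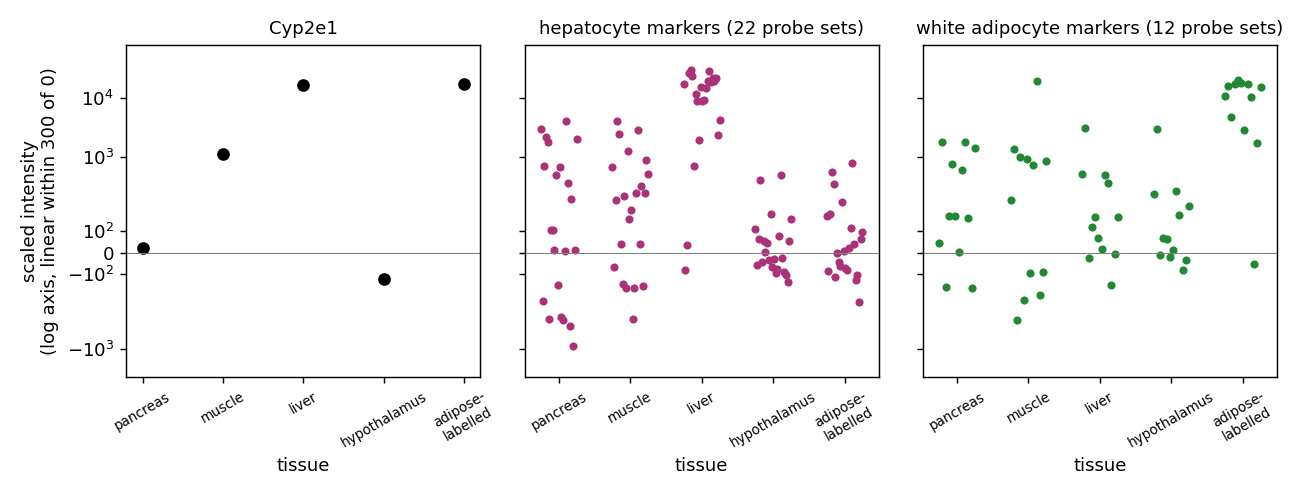
Points are scaled intensities on 1 array each, by tissue, on a log axis that is linear within 300 of 0: Cyp2e1 on the left, the 22 probe sets of hepatocyte markers in the middle and the 12 of white adipocyte markers on the right. Cyp2e1 is high in both liver and the adipose-labelled sample, at 16351 and 17182, while most hepatocyte markers are high in liver and most adipocyte markers in the adipose-labelled sample.

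Family 3 encodes the main oxidases of drugs and of steroid hormones, and all 5 of its probe sets were called for liver. Of these, 4 are family designs, marked by the ending _f_at, which may bind messages of related genes. Cyp3a11, the most studied mouse member, read 27946 in liver, -39.2 in the adipose-labelled sample, -97.3 in hypothalamus, 457 in muscle and -479 in pancreas by 1 family design and 24789, -76.3, -42.7, 162 and -66.1 in the same order by the other. Liver was at least 10.7-fold higher by the one and 9.50-fold by the other. Cyp3a16, known as a member of fetal liver, read 4597 in liver, 9.04 in the adipose-labelled sample, -48.7 in hypothalamus, -202 in muscle and 24.0 in pancreas on chip A and 8277, -18.1, -22.8, 24.1 and -256 on chip B. The liver value was above all others on both chips, at least 3.94-fold and 3.17-fold, and how much of it is the message of Cyp3a11 was not tested. Cyp3a13, a member known in gut and liver, has the probe set of this family that is no family design. It read 4439 in liver, -244 in the adipose-labelled sample, 83.4 in hypothalamus, -364 in muscle and -130.2 in pancreas, at least 1.70-fold higher in liver. The upstream sequences of Cyp3a11 and Cyp3a16 are shown for their likeness, from chr5:145879855-145880004 (minus strand) and chr5:145469724-145469873 (minus strand) in GRCm38.p6.
Cyp3a11: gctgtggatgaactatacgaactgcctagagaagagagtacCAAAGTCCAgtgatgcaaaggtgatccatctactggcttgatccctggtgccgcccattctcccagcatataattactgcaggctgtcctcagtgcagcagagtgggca
Cyp3a16: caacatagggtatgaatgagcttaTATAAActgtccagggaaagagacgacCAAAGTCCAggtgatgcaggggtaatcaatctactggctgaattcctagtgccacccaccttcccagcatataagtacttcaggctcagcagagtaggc
The pair was identical in 76.2% of aligned positions over 250 bases and each matched Cyp3a13 in 53.5% and 53.9%. Both held CAAAGTCCA, a form of CAAAGNNCA, beginning 109 and 99 bases before the start.

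Family 4 encodes hydroxylases of fatty acids, and its Cyp4a genes are known targets of the fatty acid receptor PPARα in liver. For Cyp4a10 the probe set ending in _g_at read 12313 in liver, -32.1 in the adipose-labelled sample, 51.6 in hypothalamus, 433 in muscle and 144 in pancreas, at least 4.72-fold higher in liver. The other probe set for the same gene read -11.0 in liver, 0 in the adipose-labelled sample, 0 in hypothalamus, -153 in muscle and 348 in pancreas, above noise in no tissue. Cyp4a14 split in the same way: 8981 in liver, -28.1 in the adipose-labelled sample, -131 in hypothalamus, 289 in muscle and -19.0 in pancreas by the probe set ending in _g_at, at least 3.44-fold higher, and 123, 18.1, 24.8, 209.8 and 271 in that order by the other. So for both genes the call for liver rests on 1 of 2 probe sets of the same source sequence. Cyp4a31, their neighbour, was not called: its family design read 1463 in liver, 30.1 in the adipose-labelled sample, 44.8 in hypothalamus, 506 in muscle and 43.0 in pancreas, at least 1.25-fold above the others, and its second probe set was above noise in no tissue. Cyp4b1, known from lung, was highest in the adipose-labelled sample, at 316 in liver, 538 in the adipose-labelled sample, 130.3 in hypothalamus, 403 in muscle and 101 in pancreas. Cyp4v3 read 591 in liver, 327 in the adipose-labelled sample, 123 in hypothalamus, 338 in muscle and 244 in pancreas, above noise in liver by a probe set of incomplete design, marked _i_at. The values of Cyp4b1 and Cyp4v3 lay below what the pancreas and muscle arrays could resolve, so they have no fold.

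Neither gene of sterol breakdown was called. Cyp7a1, the rate-limiting enzyme of bile acid synthesis, read 561 in liver, 86.4 in the adipose-labelled sample, 38.7 in hypothalamus, 32.1 in muscle and -93.2 in pancreas. The liver value was the highest, but under the noise bound of the liver array of chip B, so it was not called. Cyp7b1, which hydroxylates oxysterols, read 296 in liver, 32.2 in the adipose-labelled sample, 73.6 in hypothalamus, 121 in muscle and 15.0 in pancreas, where the liver value was just above the bound of 295.

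Of the steroid hormone genes, Cyp17a1, the hydroxylase and lyase that leads to androgens, was called for liver at 1384 in liver, -198 in the adipose-labelled sample, -194 in hypothalamus, -67.1 in muscle and 160.1 in pancreas, at least 1.19-fold higher. Cyp11a1, which cleaves the side chain of cholesterol to start steroid synthesis, read -107 in liver, 51.2 in the adipose-labelled sample, 119 in hypothalamus, 1467 in muscle and 962 in pancreas. It was above noise in muscle and under the pancreas bound in pancreas, and with the pancreas arrays left out it was called for muscle. Of 6 measured markers of steroid-making cells, 0 were called for any tissue, beside 0.835% to 2.04% of all probe sets by tissue. Above noise were 1 gene in pancreas, 1 in muscle, 2 in liver, 3 in hypothalamus and 2 in the adipose-labelled sample. Of all probe sets 11.9%, 13.9%, 25.7%, 31% and 24.8% were above noise in that order. With 6 genes, these counts say nothing about the list. The gene in pancreas and muscle was Nr5a1, the steroidogenic factor. Its probe set of chip A read 444 in liver, 357 in the adipose-labelled sample, 323 in hypothalamus, 1924 in muscle and 3589.6 in pancreas. Pancreas was first and muscle next, while for Cyp11a1 muscle was first and pancreas, under its bound, next. Of all probe sets, 27.6% were highest in pancreas and 24.5% in muscle. The chip B probe set of Nr5a1 was above noise in no tissue. Star, which carries cholesterol into mitochondria, and the steroid dehydrogenase Hsd3b1 were above noise in no tissue either, while Inha was above it in hypothalamus, Mc2r in the adipose-labelled sample and Fdx1 in liver, hypothalamus and the adipose-labelled sample. The summed level of the list was 4705 in liver, 3199 in the adipose-labelled sample, 1889 in hypothalamus, 3825 in muscle and 5164 in pancreas. Of these sums, the chip A probe set of Nr5a1 gave 3589.6 in pancreas and 1924 in muscle, and Fdx1 gave 3454 in liver. The part of such cells in the Cyp11a1 values was not tested.

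The vitamin D pair did not stand out in any tissue. Cyp27b1, which activates vitamin D, read 299 in liver, 134 in the adipose-labelled sample, 395 in hypothalamus, 1433 in muscle and 748 in pancreas by the probe set ending in _g_at, above noise in muscle, hypothalamus and liver. By its other probe set it read 181, 288, 161, 438 and 1108 in that order, above noise nowhere and highest in pancreas, so the 2 differ in the tissue they put first. Cyp24a1, which inactivates vitamin D, was above noise in no tissue by either of its probe sets, with values from -315 to 679.

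Of the 9 genes read by 2 probe sets, 3 had probe sets that differed in the call. Both probe sets were called for liver for 3 genes, Cyp1a2, Cyp3a11 and Cyp3a16, 1 of 2 for Cyp2d10, Cyp4a10 and Cyp4a14, and neither for Cyp24a1, Cyp27b1 and Cyp4a31. The second probe set of Cyp2d10, of incomplete design on chip B, read 5643 in liver, 2616 in the adipose-labelled sample, 1577 in hypothalamus, 1262 in muscle and 9605 in pancreas, so that pancreas was highest and 1.70-fold above liver, while the chip A probe set read -86.1 in pancreas. The pancreas value of 9605 was the single P450 value above the noise bound of a pancreas array.

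**Figure D4:**
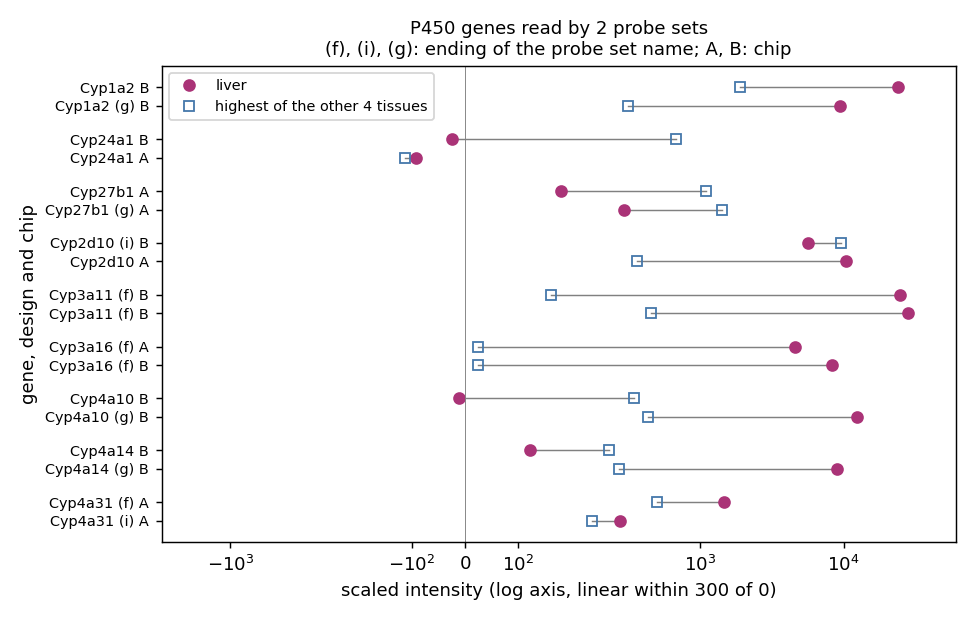
Filled circles give the liver intensity and open squares the highest of the other 4 tissues, for the 9 P450 genes read by 2 probe sets, on a log axis that is linear within 300 of 0. Liver is to the right for both probe sets of Cyp1a2, Cyp3a11, Cyp3a16 and the uncalled Cyp4a31. It is to the right for only 1 of the 2 for Cyp2d10, Cyp4a10, Cyp4a14 and Cyp24a1, the last with both points below 0.

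Many members are neighbours in the genome. With genes joined when their starts lie within 1 Mb of the next in the GRCm38.p6 table, 20 of the 30 genes fell into 6 groups of neighbours and 13 of these 20 were called for liver, against 3 of the 10 genes that stood alone. The groups of Cyp2d and of Cyp3a11 with Cyp3a16 were called in full. The group of Cyp2s1, Cyp2b10, Cyp2b13, Cyp2b9, Cyp2a12 and Cyp2f2 held 4 called genes and that of Cyp4a14, Cyp4a10, Cyp4a31 and Cyp4b1 held 2. Of Cyp2j5 and Cyp2j6, 1 was called, and of Cyp1a2, Cyp1a1 and Cyp11a1 also 1. Neighbours are often close relatives, so that their probe sets may share messages and are not separate evidence.

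The upstream letters could be read for 23 of the 30 genes. Cyp17a1, Cyp24a1, Cyp4a10, Cyp4a14, Cyp4a31, Cyp7a1 and Cyp7b1 had no entry. In the 250 bases before the start, CAAAGNNCA on either strand was found for 6 of 13 called genes (the Cyp2d trio, Cyp3a11, Cyp3a16 and Cyp2a12) and for 1 of 10 others, Cyp4b1, beside 5.49% of all 32851 promoters. TATAAA on the gene's strand was found for 5 of the 13 and 2 of the 10, beside 7.59% of all. TGTTTAC, letters that FOXA factors are known to bind, was found on either strand for 3 of the 13 and 0 of the 10 (3.17% of all), GTTAAT, part of an HNF1 site, for 1 and 0 (6.43%), and TTGCNNAA, like a C/EBP site, for 2 and 2 (9.56%). CAAAGNNCA was chosen after the sequences had been seen and close relatives are alike in sequence, so the counts are a description.

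Genes that supply P450 enzymes with electrons were few on the chips, while most of those for heme were measured. Of 12 listed genes of electron transfer 4 were measured, by 6 probe sets, and 0 were called for any tissue. Since 0.835% to 2.04% of all probe sets were called by tissue, a count of 0 in so few says nothing about the list. Fdx1, the ferredoxin that feeds mitochondrial P450 enzymes, was highest in liver, at 3454 in liver, 1145 in the adipose-labelled sample, 551 in hypothalamus, 676 in muscle and 314 in pancreas, at least 2.96-fold above the others. Pgrmc2, a heme-binding partner of P450 enzymes, was highest in pancreas, at 529 in liver, 1012 in the adipose-labelled sample, 949.8 in hypothalamus, 1499 in muscle and 2278 in pancreas. Of 13 listed genes of heme synthesis and breakdown 10 were measured, by 14 probe sets, and 0 were called, which is read in the same way. Their median log2 difference of liver from the mean of the other tissues was 0.76. Alas1, the rate-limiting enzyme of heme synthesis outside red cells, was above noise in all 5 tissues, at 12782 in liver, 5459 in the adipose-labelled sample, 2046 in hypothalamus, 6398 in muscle and 2616 in pancreas; liver was highest and muscle next. Alad, the next enzyme, was highest in liver too, at 3488. It read 1997 in the adipose-labelled sample, 2278 in hypothalamus, 349 in muscle and 785 in pancreas. Cpox and Urod were highest in liver as well. Uros read highest in hypothalamus at 501, Hmox2 there at 1188 and Hmox1 in the adipose-labelled sample at 462, each above noise. Fech was highest in muscle and Alas2 in pancreas, each under the noise bound of that array. The probe sets of Ppox differed in the tissue they put first. So the genes of this list were not all highest in liver.

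Of 36 listed receptors and factors known to regulate P450 genes 27 were measured, by 33 probe sets. For liver 2 genes, by 3 probe sets, were called, beside 2.04% of all probe sets, and 0 for the other tissues, beside 1.66% in pancreas, 1.27% in muscle, 1.85% in hypothalamus and 0.835% in the adipose-labelled sample. The receptor CAR, encoded by Nr1i3, is known to induce Cyp2b10 and read 1243 in liver, 57.3 in the adipose-labelled sample, -27.8 in hypothalamus, -192 in muscle and 211 in pancreas by 1 probe set and 1843, 11.1, 70.6, 128 and -54.0 in that order by the other. Both were called, at least 1.07-fold and 1.58-fold higher in liver. Nr1h4, the bile acid receptor FXR, known to restrain bile acid synthesis, read 1452 in liver, -32.2 in the adipose-labelled sample, -88.5 in hypothalamus, -436 in muscle and -296 in pancreas, at least 1.24-fold higher in liver. Hnf4a, Ahr and Ppara were above noise in no tissue, with 214, 258 and -3.99 in liver, so these arrays give no order for them. The median log2 difference of liver for this list was 0.16.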

How the data were processed

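Biotin-labelled cRNA, made from 10 µg of total RNA after Trizol extraction, was hybridised to Affymetrix chips A and B following the maker's manual of 2001, per the labels' protocols. The deposited values are intensities in whole numbers, some below 0, and the authors appear to have scaled the arrays to a common level, since the trimmed means of the deposited values lay between 491 and 499. Software and presence calls: not given in the sources used here. For 4 tissues groups came from the title, and for the adipose arrays from the source label.

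With Python 3.11.15 and pandas 2.3.3, 61 controls per chip were left out and each array was divided by its mean after trimming 2% at each end, then multiplied by the mean of its chip. The floor is the median of the 5 array medians, and the noise bound the size of the 1st percentile of an array. Calls, folds and medians follow the report, and the call rule was checked on simulated data. Symbols come from the platform annotation. Upstream sequences are from RefSeq (GRCm38.p6) and were aligned with Biopython 1.88. Every member is named; of the lists of related genes and cell markers, called genes and up to 3 fixed first in each list may be named, and Fdx1, Pgrmc2, Hnf4a, Ppara, Nr5a1, Inha, Mc2r, Ttr, G6pc and Lpl were named outside that rule, after their values were seen. The heme genes other than Alas1 and Alad were also named after their values were seen. The members, lists and rules were chosen with earlier results of these data known. Of measured marker genes, 8 of 8 for pancreatic acinar cells and 12 of 12 for muscle fibres were called for the tissue they mark. So were 11 of 12 for neurons, 14 of 17 for hepatocytes and 9 of 10 for white adipocytes. Macrophage genes mark a cell type rather than 1 of these tissues, and 2 of 10 were called for the adipose-labelled sample. Both, Csf1r and Mrc1, read there under the pancreas noise bound, so they have no fold. Alternatives in scaling, floor, noise bound, fold, tissues and probe design are given at the end. The number of arrays limits the precision.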

Additional observations from a re-analysis of the deposited data

How the results depend on the processing

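Of 19 P450 probe sets called for liver, the count was 19 under 75th percentile scaling, with no further scaling, under quantile normalization and without the pancreas arrays, 20 without the noise bound and without the adipose-labelled arrays, 22 under a 2-fold and 15 under an 8-fold rule, 17 with the floor at the 75th percentile and 15 without probe sets of family or incomplete design. It fell to 10 with array noise bounds as floors, and there the liver value of Cyp2d9 was 0.792 times the pancreas noise bound, which stood in for a lower pancreas value; no tissue read above liver. The count of 15 only leaves out the 4 called family designs and could not change the other calls. Counts for the other tissues stayed at 0 under these settings, with the exception of 1 for muscle, Cyp11a1, without the pancreas arrays. Over 8 alternatives for the 19 folds, 141 of 152 kept direction and call, 10 lost the call and 1, this ratio of Cyp2d9 to a noise bound, went below 1. For Cyp2e1 the lower of liver and the adipose-labelled sample stayed 14.0-fold to 18.2-fold above the rest, in alternatives chosen after seeing the data. The noise bounds of pancreas and muscle limit what could be seen there.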
